A study of Papaver somniferum with 12 samples.

Results

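The RNA pool of opium poppy (Papaver somniferum) leaves was described through its 100 most abundant unigenes, out of 61856 in the deposited table. A unigene is here a sequence that the authors derived by clustering long reads from pooled RNA of roots, stems and leaves of the original cultivar B1. Members were the 100 unigenes with the highest mean RPKM over all 12 libraries, after PB.225.272 was left out. RPKM is a read number divided by transcript length and by the number of reads mapped. The choice rule also asked to leave out the 20 other loci with most unigenes. Each of the 61856 locus numbers had exactly 1 unigene, so this clause singled out no locus and removed none. Because the mean level chose the members, their levels and ranks are given as a description without a test. The rule did not use the contrasts between cultivars, which were tested. It was not neutral to their direction, however, because 9 of the 12 libraries in the mean were not from B2. A unigene low in B2 and high elsewhere thus entered the list more readily than one high in B2 alone, and the balance of members lower and higher in B2 is given as a description.

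The libraries came from the top leaf of 4 cultivars bred by the institute of the study and grown on its experimental plot, named B2, T, Z and G. All were sampled at the filling stage, after the petals have fallen, without any treatment, and each cultivar had 3 libraries from independent samples. The labels and methods give no genotype beyond the cultivar name, and whether a sample pooled several plants is not given in the sources used here. Libraries are named by cultivar and by the replicate number of the labels.

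In leaves, much of the messenger RNA of the nucleus comes from a small number of genes. In plants in general these include the small subunit of Rubisco, the enzyme that fixes carbon dioxide, and the chlorophyll-binding proteins that harvest light. Poppy leaves are also crossed by latex cells, which store alkaloids and hold abundant latex proteins. Which of these the members encode was not determined. The identifiers belong to the authors' own long-read unigenes, and 0 of the 61856 matched the reference table of opium poppy genes by name. Such a failed match says nothing on what a unigene encodes. The deposited table of values holds no gene names. The study states that a functional annotation was deposited, which was not used here. Without gene names the leaf label could not be checked against leaf markers. Members are therefore described by identifier, level, rank and spread.

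The mean level fell steeply over the first members and slowly after them. PB.974.98, the highest, had a mean of 12422 RPKM over 12 libraries and PB.57268.7, the last, had 1103, a ratio of 11.3. Together the members were 0.162% of all unigenes and held 24.04% of all RPKM. The 10 highest held 6.62% and the 50 highest 16.65%. At the bound of the list the levels were close. PB.58325.2, PB.9583.23 and PB.57268.7, at ranks 98 to 100, had means of 1144, 1115 and 1103 RPKM. PB.6922.24, PB.51928.3 and PB.21026.6, just outside, had 1097, 1075 and 1067 RPKM. All 100 members passed the filter of at least 1 RPKM in at least 3 libraries, the lowest value of any member in any library was 153 RPKM, and 64 members were never below 1000 RPKM.

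**Figure D1:**
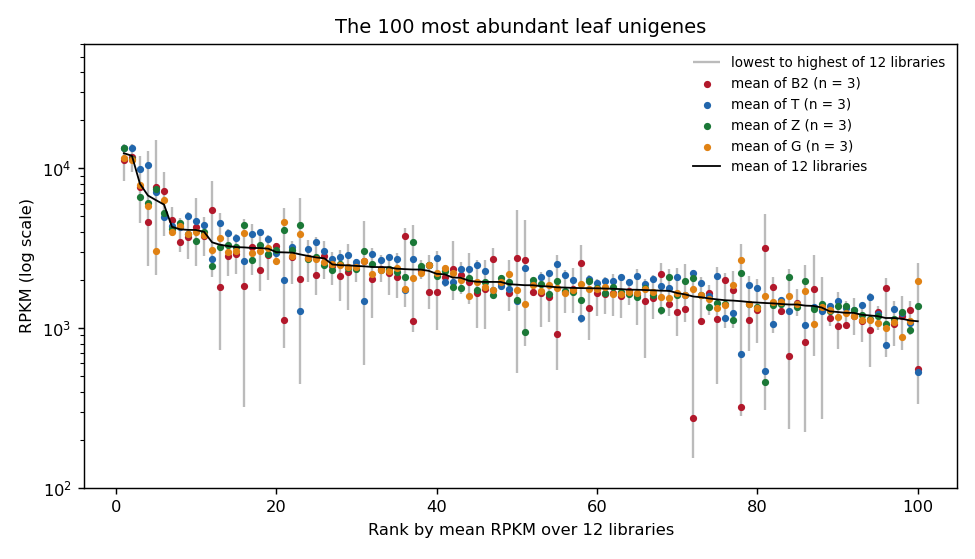
RPKM on a log scale against rank by the mean over 12 libraries, for the 100 most abundant unigenes. The black line is the mean of 12 libraries, coloured points are cultivar means (n = 3) and grey lines run from the lowest to the highest library. The mean falls from 12422 to 1103 RPKM, and B2 replicate 2 is the lowest of the 12 libraries in 58 members.

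The last number of an identifier, which numbers the transcripts of a locus in the usual naming of long-read pipelines, was high among members. Its median was 29.5 in the members, 3 in the 900 unigenes next in rank by the same rule and 1 over all unigenes. It was at least 10 in 73 of the 100 members and in 3.13% of all unigenes. Of the 33 unigenes with a number of 100 or more, 19 were members, and PB.734.2622 had the highest number among members. At the other end, 8 members had the number 1, as did 70.6% of all unigenes. The files do not say how this number was given, and reads of other transcripts of the same locus may have been counted on the 1 unigene that stands for it.

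The first comparison asked whether the abundant class took the same share of the RNA in each cultivar. In B2 the members held 23.2%, 19.4% and 24.7% of summed RPKM in replicates 1, 2 and 3. The T libraries held 26.1%, 25.1% and 25.3%. Those of Z held 24.7%, 23.5% and 24.9%, and those of G 23.6%, 23.1% and 24.8%. B2 replicate 2 was lowest of the 12 libraries and the 3 T libraries were highest. As a mean ± SD of 3 libraries, B2 held 22.4% ± 2.76, T 25.5% ± 0.489, Z 24.3% ± 0.765 and G 23.8% ± 0.915. The part of the variance that lay between cultivars was 0.445 of the total sum of squares. With replicate numbers ignored, it did not exceed what the replicate spread gives, with p = 0.119 in an exact permutation test that used each of 15400 partitions. Without B2 replicate 3 it did, with a share of 0.678 and an exact p of 0.00435. With the replicate number as a block, the share was 0.643 and the exact permutation p 0.00174, but the labels do not link replicate numbers across cultivars. The outcome thus depended on how the libraries were treated. With PB.225.272, which alone held 7.62% to 11.3% of summed RPKM, taken out of the denominator, the members held 21.8% to 28.5% (share of the sum of squares 0.451, exact p = 0.124). In these bulk samples, fewer cells of a type and less RNA per cell cannot be told apart.

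**Figure D2:**
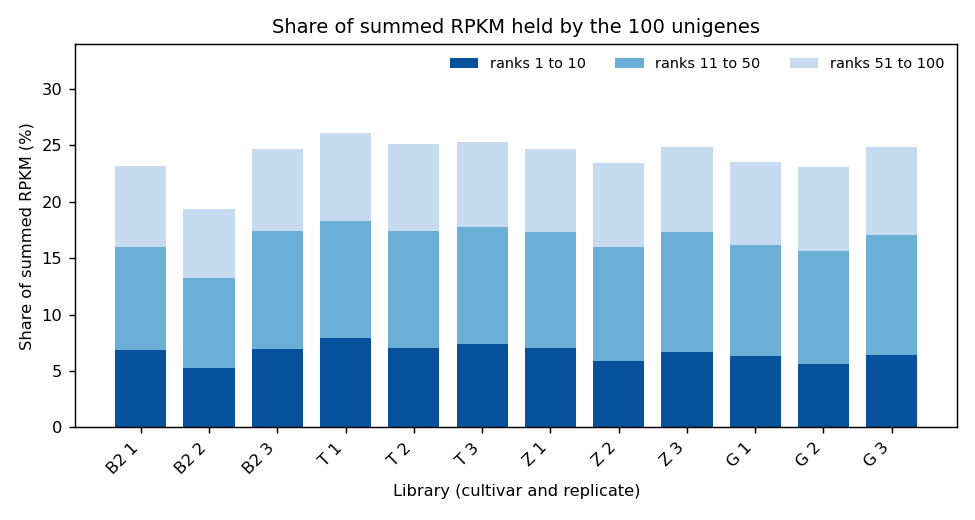
Share of summed RPKM in percent held by the 100 members in each of the 12 libraries, stacked by rank class (1 to 10, 11 to 50, 51 to 100). B2 replicate 2 is lowest at 19.4% and T replicate 1 highest at 26.1%.

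The share of B2 replicate 2 was the lowest of B2 in all rank classes. The 10 highest members held 5.25% there and 6.87% and 6.97% in the other B2 libraries. Members of ranks 11 to 50 held 8.02% there, against 9.13% and 10.45%, and those of ranks 51 to 100 held 6.08%, against 7.17% and 7.30%. In T, members of ranks 11 to 50 held 10.37% ± 0.0357, the smallest spread of any class in any cultivar.

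Rank order was next compared among cultivars, with PB.225.272 left out of all ranks. The cultivars shared most of their abundant unigenes, since 90 members were among the 100 highest of B2, 93 of T, 96 of Z and 97 of G. In all 4 cultivars 83 members were among the 100 highest, and in all 12 libraries 57 were. Conversely, 23 unigenes outside the members were among the 100 highest of at least 1 cultivar. Single libraries shared fewer members with their own 100 highest, from 78 to 83 for the B2 libraries, 88 to 93 for those of T and of Z, and 94 or 95 for those of G. At the head of the list, 5 members were in the top 10 of every cultivar, namely PB.974.98, PB.46813.49, PB.115.445, PB.734.2622 and PB.57706.22. In at least 1 cultivar 17 members reached the top 10.

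PB.974.98 was the highest member in T, Z and G, and PB.46813.49 was the highest in B2. PB.974.98 had 11424, 8302 and 14250.5 RPKM in B2 replicates 1 to 3, 12899.6, 13317 and 14229 in T, 13686, 12101 and 14219.9 in Z and 12489.6, 9728 and 12419 in G. PB.46813.49 had 14027, 10945 and 10426 RPKM in B2 replicates 1 to 3, 12718, 13347 and 14118 in T, 12070.3, 9495 and 12853 in Z and 12146, 10513 and 11046 in G. For both unigenes the T libraries lay above the G libraries, while B2 and Z overlapped with T and with G. Within each cultivar the values of both unigenes overlapped. Their F-test adjusted p-values in limma were 0.579 and 0.628, so that neither differed among cultivars beyond the spread between replicates.

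The next members differed more from library to library. PB.115.445 had 6473, 4564 and 11987 RPKM in B2 replicates 1 to 3, 10592, 9438 and 9466 in T, 6798, 5548 and 7629 in Z and 7967, 6612 and 8849.8 in G. B2 replicate 3 and the T libraries were high, and B2 replicate 2 was lowest (limma F-test adjusted p = 0.44). Its adjusted p passed 0.05 in the fit without B2 replicate 3. PB.734.2622 had 3305, 2446 and 8069.9 RPKM in B2 replicates 1 to 3, 12781, 8736 and 9992 in T, 7364, 3779 and 7105 in Z and 5717, 4906 and 6826 in G. All 3 T libraries of PB.734.2622 lay above the 9 others. The log2 difference of T from B2 was 1.37 (SE 0.409, limma adjusted p = 0.0377), which passed both thresholds for a call, 0.05 for the adjusted p and 1 for the size of the difference. With each library left out in turn it lay at 1.01 to 1.87. The call was kept only without B2 replicate 3 or without any 1 of the Z libraries, and it was also lost with no filter and in a fit on T and B2 alone.

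PB.28066.14, at rank 5, varied widely inside every cultivar. PB.28066.14 had 15120.5, 5465 and 2479 RPKM in B2 replicates 1 to 3, 10064, 3925 and 7339.6 in T, 12541, 5658 and 4161 in Z and 2809.8, 4102 and 2136 in G. In B2, T and Z replicate 1 was highest, and the G libraries were all at 4102 RPKM or less. The range of cultivar means was 1.19 on the log2 scale against a pooled standard deviation within cultivars of 0.878, and the F-test adjusted p in limma was 0.374. PB.57706.22, at rank 6, had 7159 ± 2472 RPKM in B2, 5257 ± 1615 in Z, 4946 ± 641 in T and 6349.6 ± 255 for the G libraries (SD, n = 3 each), with a limma F-test adjusted p of 0.439. Its highest library was B2 replicate 2, in which 58 members had their lowest value of the 12 libraries.

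The last 4 of the 10 highest members all had their lowest value in B2 replicate 2. PB.2130.33 ran from 3793 to 5740 RPKM over the 12 libraries and PB.15551.42 from 2991 to 4903. PB.107.425 ran from 2700 to 5293 RPKM and PB.6825.361 from 2441 to 6476. For each of PB.2130.33, PB.107.425 and PB.6825.361 the highest library was B2 replicate 3, and for PB.15551.42 it was Z replicate 3. Their limma F-test adjusted p-values were 0.648, 0.164, 0.338 and 0.637, and without B2 replicate 3 those of PB.15551.42 and PB.107.425 passed 0.05.

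Some members changed rank widely between cultivars. PB.59688.1 ranked 478 in B2, 46 in Z, 43 in T and 57 in G. PB.15857.5 ranked 392 in B2, 40 in Z, 161 in T and 25 in G, and PB.24983.8 ranked 16 in B2, 262 in Z, 206 in T and 75 in G. These 3 fell furthest, and the other members stayed within the 210 highest of every cultivar. As a description across the 100 members, which share libraries and are not independent, Spearman's rho between libraries averaged 0.925 within T, 0.856 within G, 0.824 within Z and 0.631 within B2. Between cultivars it averaged 0.740 for T and Z, 0.745 for T and G and 0.823 for Z and G. With B2 it averaged 0.557 for T, 0.514 for Z and 0.582 for G.

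The pairwise comparisons asked which abundant unigenes differed in level between cultivars. Each test was made on log2(RPKM + 1) over all 33161 unigenes at 1 RPKM or more in at least 3 libraries, and adjusted over all of them. Between T and B2, 8 of 100 members were called, 5 of them higher and 3 lower in T, where 7.05% of all unigenes tested were called, 2.4% higher and 4.64% lower. Between Z and B2 the members called numbered 11, with 8 higher and 3 lower in Z, against a background of 8.17%, 3.16% higher and 5.01% lower. Between G and B2 they numbered 6, with 5 higher and 1 lower in G, against 5.96%, 2.25% higher and 3.71% lower. In total the members were called about as often as unigenes in general. Members lower in B2 outnumbered those higher in B2 in each comparison. In the 900 unigenes next in rank this held for Z, with 50 higher and 33 lower than in B2, and for G, with 32 higher and 11 lower, but not for T, with 24 higher and 33 lower. The 3 comparisons share the B2 libraries.

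Among T, Z and G almost no member was called in the fit on all 12 libraries, which pooled the spread over the 4 cultivars. Between G and T 1 member was higher in G, against 1.03% of all unigenes called and 0.697% higher in G. In limma 0 members were called between Z and T, where 0.754% of all unigenes were. At an unadjusted p under 0.05 there were 9 members, against 14.7% of all unigenes. Likewise 0 members were called between G and Z, where 0.663% of all unigenes were. At an unadjusted p under 0.05 there were 4 members, against 11.6% of all unigenes. By the adjusted p alone, without the threshold on size, 15, 19 and 11 members passed for T, Z and G against B2, where 20.7%, 24% and 17.4% of all unigenes did. In limma's F-test over the 4 cultivars 17 members had an adjusted p under 0.05, against 22.3% of all unigenes. In all, 15 members were called in at least 1 pair, each of them in a pair with B2, and 7 more passed the F-test alone. The call was kept in every fit that left out 1 library for 13 of the 26 member comparisons called.

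These counts rested on single libraries, and the share of all unigenes called in the same fit is given beside each. By the quality values that the study lists, B2 replicate 3 had the lowest RNA integrity and the lowest base quality of the 12 libraries. B2 replicate 2 had the highest of both within B2, and Z replicate 2 had the lowest value of 1 of the RNA purity ratios. Whether any of these values bears on the counts was not tested. For T and B2 the count was 15 without B2 replicate 3 (8.51% of all unigenes). It was 5 without B2 replicate 1 (4.74%), T replicate 1 (5.97%) or T replicate 2 (6.87%). For Z and B2 it was 6 without Z replicate 1 (7.55%) or Z replicate 3 (7.45%) and 7 without Z replicate 2 (7.61%). For G and B2 it was 12 without B2 replicate 2 (5.34%) and 3 without G replicate 2 (5.21%), so that the members' count moved while the share of all unigenes hardly did. For G and T it was 4 without B2 replicate 3 (1.71%) and 2 without B2 replicate 1 (1%) or G replicate 1 (0.813%). It was 0 without T replicate 1, T replicate 3, G replicate 2 or G replicate 3, when 0.671% to 0.713% of all unigenes were called. Without B2 replicate 3 the Z and T count was 3 (1.43%) and the G and Z count 1 (1.17%). Without B2 replicate 2 the Z and T count was 1 (0.951%). The F-test passed 41 members without B2 replicate 3 (31%) and 10 without T replicate 3 (18.2%). It passed 11 without T replicate 1 (18%), Z replicate 3 (17.5%), G replicate 1 (18.6%) or G replicate 3 (17.5%).

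The median absolute log2 difference of the members was 0.38 for T minus B2, 0.26 for Z minus B2 and 0.22 for G minus B2, against 0.24, 0.26 and 0.23 over all unigenes tested. With its sign, the median log2 difference of the members was 0.29 for T minus B2, 0.13 for Z minus B2 and 0.12 for G minus B2, with 75, 68 and 69 of 100 members above 0. Over all unigenes tested it was -0.03, -0.06 and -0.03. For Z minus T the median of the members was -0.15 and for G minus T -0.21, with 69 and 72 members below 0, and for G minus Z it was 0.00. T had the highest cultivar mean in 57 members and B2 the lowest in 58. These counts of members stand without the same counts over all unigenes tested, and the choice rule favoured unigenes low in B2.

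**Figure D3:**
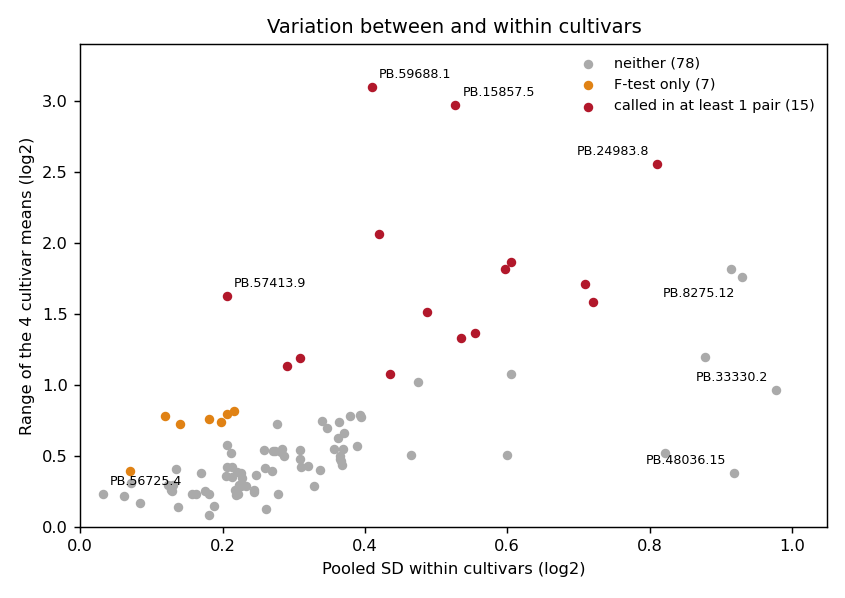
Range of the 4 cultivar means against the pooled standard deviation within cultivars, both on the scale of log2(RPKM + 1), 1 point for each of the 100 members. Red marks the 15 members called in at least 1 pair in limma, orange the 7 that passed only the F-test and grey the 78 others. PB.59688.1 has the largest range at 3.10 and PB.33330.2 the largest spread at 0.977.

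One member, PB.59688.1, was set apart in 1 cultivar, meaning that it was called in all 3 comparisons of B2 with the same direction. Over all unigenes 3.72% were set apart in B2, 1.17% in the lower direction. PB.59688.1 had 313, 352 and 153 RPKM in B2 replicates 1 to 3, 2306, 2138 and 2169.9 in T, 2054, 2063 and 2087 in Z and 2133, 1143 and 1998 in G. The 3 B2 libraries lay far below the 9 others, and within T and Z the values were nearly equal. The log2 difference from B2 was 3.10 (SE 0.302, limma adjusted p = 3.54e-05) for T, 3.01 (SE 0.302, limma adjusted p = 4.32e-05) for Z and 2.72 (SE 0.302, limma adjusted p = 0.000122) for G. These calls held in all fits that left out 1 library, with differences of 2.73 to 3.33, 2.63 to 3.24 and 2.35 to 3.00. The unigene sequence came from B1, so a lower RNA level in B2 and a transcript of B2 that matches the B1 sequence less well cannot be told apart. The number of members set apart in B2 rose to 4 with B2 replicate 3 left out (4.2% of all unigenes) and to 3 with B2 replicate 2 left out (2.71%). It was 2 without T replicate 3 (3.48%), Z replicate 2 (3.56%) or G replicate 1 (3.38%). By the adjusted p alone 7 members were set apart in B2, against 10.7% of all unigenes. In limma 0 members were set apart in T, Z or G, against 0.193%, 0.0995% and 0.0422% of all unigenes, and at an unadjusted p under 0.05 the count was also 0 in each.

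**Figure D4:**
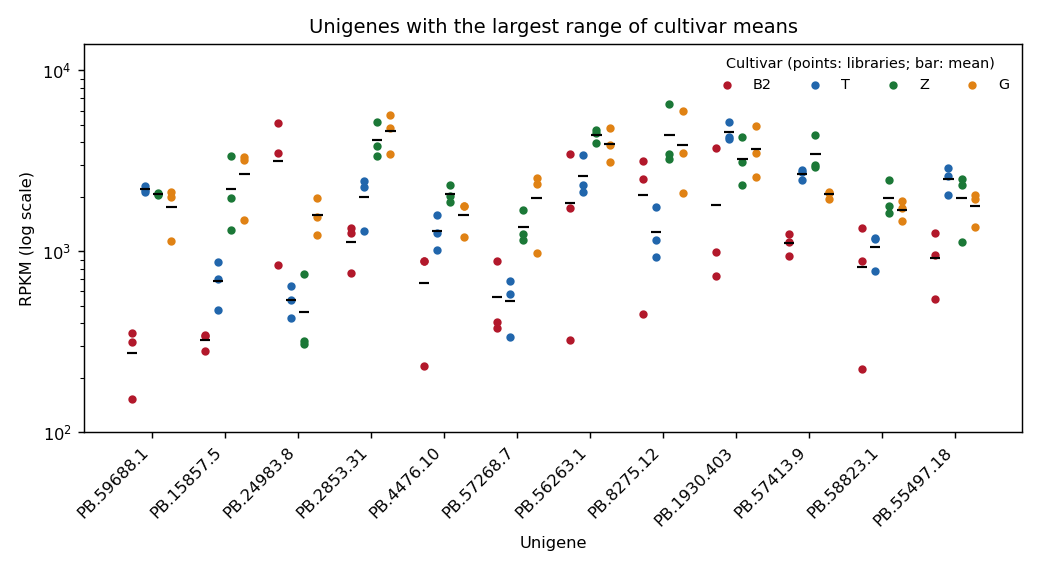
RPKM on a log scale in each of the 12 libraries for the 12 members with the largest range of cultivar means. Points are libraries, coloured by cultivar, and bars are cultivar means. For PB.59688.1 the B2 libraries lie at 153 to 352 RPKM and all others at 1143 RPKM or more.

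In PB.15857.5 and PB.2853.31 the B2 and T libraries all lay below those of Z and G. PB.15857.5 had 280.3, 338 and 345 RPKM in B2 replicates 1 to 3, 705, 872 and 475 in T, 1308, 3346 and 1969 in Z and 1493, 3333 and 3195 in G. The values formed an order of B2 below T below Z and G without any overlap between B2, T and the rest. Its log2 difference from B2 was 2.68 (SE 0.382, limma adjusted p = 0.000562) for Z and 2.97 (SE 0.382, limma adjusted p = 0.000354) for G, and both calls held without any single library. PB.15857.5 was also the 1 member called between G and T, at 1.92 (SE 0.382, limma adjusted p = 0.0276). That call was lost without T replicate 1, T replicate 3, G replicate 2 or G replicate 3, over which and the other fits the difference ranged from 1.68 to 2.30, and it was lost with no filter. For Z minus T it was 1.63 (SE 0.382, limma adjusted p = 0.0708), which did not pass. Z and G, which are neighbours in this order, overlapped and were not told apart by the test, with a log2 difference of 0.29 (SE 0.382, limma adjusted p = 0.862).

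PB.2853.31, at rank 21, had the same order of cultivar means. PB.2853.31 had 1265, 1346 and 754 RPKM in B2 replicates 1 to 3, 2454, 2272 and 1289.7 in T, 3366, 5212 and 3822 in Z and 3448, 4832 and 5647 in G. The Z and G libraries lay above all B2 and T libraries, and the lowest T library lay inside the range of B2. The log2 difference from B2 was 1.90 (SE 0.313, limma adjusted p = 0.00143) for Z and 2.06 (SE 0.313, limma adjusted p = 0.00112) for G, kept without any single library. Between T and B2 it was 0.83 (SE 0.313, limma adjusted p = 0.0862), which did not pass. Nor did the differences from T, at 1.07 (SE 0.313, limma adjusted p = 0.138) for Z and 1.24 (SE 0.313, limma adjusted p = 0.0824) for G. PB.57268.7, the last member, had 555 ± 285 RPKM in B2, 1365 ± 284 in Z, 533 ± 179 in T and 1958 ± 856 for the G libraries (SD, n = 3 each). Its difference from B2 was 1.81 (SE 0.43, limma adjusted p = 0.0155) for G, lost without G replicate 2 or G replicate 3, and 1.39 (SE 0.43, limma adjusted p = 0.0386) for Z, lost without B2 replicate 2, B2 replicate 3, T replicate 2 or any 1 of the Z libraries. Over those fits the difference of G ranged from 1.56 to 2.25 and that of Z from 1.17 to 1.78, and both calls were lost in fits on 2 cultivars alone.

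PB.4476.10 was low in B2 and highest in Z. PB.4476.10 had 888, 882 and 233 RPKM in B2 replicates 1 to 3, 1261, 1586 and 1013 in T, 2329, 2011 and 1879.7 in Z and 1202, 1785 and 1776 in G. B2 lay below the 9 others and Z above them, with B2 replicate 3 far below the other B2 libraries. The log2 difference from B2 was 1.86 (SE 0.437, limma adjusted p = 0.0109) for Z, kept without any single library at 1.22 to 2.18. For G it was 1.46 (SE 0.437, limma adjusted p = 0.0428), which was kept only without B2 replicate 1 or B2 replicate 2 and ranged from 0.82 to 1.78. Both calls were lost in fits on 2 cultivars alone.

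PB.57413.9 differed from B2 in T and Z with a small spread. PB.57413.9 had 1122, 1250.2 and 939.6 RPKM in B2 replicates 1 to 3, 2759.5, 2831 and 2470.3 in T, 4414, 2915 and 3014 in Z and 2139, 1955 and 2093 in G. The order was B2, G, T and Z, with no overlap between any neighbours. The log2 difference from B2 was 1.29 (SE 0.174, limma adjusted p = 0.000418) for T and 1.63 (SE 0.174, limma adjusted p = 6.95e-05) for Z, both kept without any single library. For G it was 0.91 (SE 0.174, limma adjusted p = 0.00476), under the difference of 1, so that this comparison was not called. The F-test adjusted p in limma was 0.000327.

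PB.1930.403 and PB.55497.18 were low in B2 and high in T. PB.1930.403 had 986, 725 and 3723 RPKM in B2 replicates 1 to 3, 4197, 4259 and 5214 in T, 3112, 2330.3 and 4264 in Z and 3479.7, 2586 and 4953 in G. B2 replicate 3 lay inside the range of the other cultivars and the other B2 libraries far below it. Its log2 difference of T from B2 was 1.71 (SE 0.512, limma adjusted p = 0.0376). With single libraries left out it lay at 1.24 to 2.42, and the call was lost without B2 replicate 1, B2 replicate 2, any 1 of the T libraries, Z replicate 1 or G replicate 1. It was also lost with no filter and in a fit on T and B2 alone. PB.55497.18 had 1258, 544 and 957 RPKM in B2 replicates 1 to 3, 2877, 2041 and 2605 in T, 2494, 1125 and 2324 in Z and 2055, 1368 and 1933 in G. In all 4 cultivars its replicate 2 was the lowest. The difference from B2 was 1.51 (SE 0.356, limma adjusted p = 0.0127) for T, lost without T replicate 1 at a difference of 1.18 to 1.78 over all 12 fits. For Z it was 1.10 (SE 0.356, limma adjusted p = 0.0455), kept only without B2 replicate 1 or Z replicate 2, over a range of 0.77 to 1.47.

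PB.58823.1 passed the thresholds between Z and B2 by little. PB.58823.1 had 884, 1344 and 224 RPKM in B2 replicates 1 to 3, 1174, 1191 and 782 in T, 1635, 2467 and 1776 in Z and 1465, 1889 and 1741 in G. B2 replicate 3 was lowest of all and B2 replicate 2 lay above all T libraries. The log2 difference of Z from B2 was 1.58 (SE 0.517, limma adjusted p = 0.0477), ranged from 0.82 to 2.11, and was called in 1 of the 12 fits that left out 1 library, that without B2 replicate 2. The call was lost with a pseudocount of 0.1, with no filter and in a fit on Z and B2 alone.

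Fewer members were higher in B2, and PB.24983.8 had the largest difference of this kind. PB.24983.8 had 5149, 3481 and 839.6 RPKM in B2 replicates 1 to 3, 644, 539 and 428 in T, 751, 319 and 307 in Z and 1549.7, 1965 and 1234 in G. B2 replicates 1 and 2 were above all other libraries, and B2 replicate 3 was below all 3 G libraries. The log2 difference was -2.56 (SE 0.579, limma adjusted p = 0.00909) for Z minus B2, kept without any single library at -3.33 to -2.03. For T minus B2 it was -2.22 (SE 0.579, limma adjusted p = 0.0209), lost without B2 replicate 1, B2 replicate 2, T replicate 2 or T replicate 3, and -1.69 where it was smallest. Both calls were lost in fits on 2 cultivars alone.

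The other members called higher in B2 were PB.3561.47, PB.60669.1, PB.58163.6 and PB.57483.41, which were chosen after their values were seen. PB.3561.47 had 4238, 3242 and 3847 RPKM in B2 replicates 1 to 3, 1771, 1422 and 1981 in T, 2459, 1526 and 2308 in Z and 2059, 1349.7 and 1847 in G. All 3 B2 libraries lay above the 9 others. The log2 difference was -1.13 (SE 0.226, limma adjusted p = 0.0052) for T minus B2, kept without any single library, and -1.12 (SE 0.226, limma adjusted p = 0.00659) for G minus B2, which lay at -1.25 to -0.94 with single libraries left out and lost the call without G replicate 2. PB.60669.1, which had the number 1, had 1778 ± 237 RPKM in B2, 1054 ± 322 in Z, 786 ± 169 in T and 1004 ± 114 for the G libraries (SD, n = 3 each). Its B2 libraries were also all above the others, and its log2 difference was -1.19 (SE 0.234, limma adjusted p = 0.0048) for T minus B2, kept without any single library.

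For PB.58163.6 and PB.57483.41 the call was less stable and was lost in more of the fits that left out 1 library. PB.58163.6 had 4887, 3315 and 8342 RPKM in B2 replicates 1 to 3, 3055, 2906 and 2164 in T, 2080.3, 2858 and 2420.3 in Z and 2127, 3398 and 3717 in G. Only B2 replicates 1 and 3 were above all other cultivars. The log2 difference of Z from B2 was -1.08 (SE 0.324, limma adjusted p = 0.0347), lost without B2 replicate 1, B2 replicate 3 or any 1 of the Z libraries, and ranged from -1.39 to -0.73. PB.57483.41 had 2046, 1216 and 4735 RPKM in B2 replicates 1 to 3, 2839.6, 2066 and 2234 in T, 989, 1090.3 and 769.5 in Z and 1399, 1229 and 1638 in G. The 3 Z libraries lay below the 9 others, and B2 replicate 3 was highest. The log2 difference of Z from B2 was -1.28 (SE 0.389, limma adjusted p = 0.0365), kept without B2 replicate 2, T replicate 1, T replicate 2 or G replicate 2 and lost in the 8 other fits, with a range of -1.73 to -0.75. Both calls were lost under median-ratio scaling of the libraries, with no filter and in fits on 2 cultivars alone.

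Of the 7 members that passed only the F-test, PB.844.195 and PB.14304.41 had the smallest adjusted p. PB.844.195 had 1162, 1119 and 1041 RPKM in B2 replicates 1 to 3, 1811, 1791 and 2102 in T, 1676, 1518 and 1624 in Z and 1839, 1552 and 1465 in G. B2 lay below the 9 others (limma F-test adjusted p = 0.00542). PB.14304.41 had 2706, 2226 and 3154 RPKM in B2 replicates 1 to 3, 1705, 1667 and 1813 in T, 1544, 1760.2 and 1559 in Z and 1764, 1711 and 1723 in G. Here B2 lay above the 9 others (limma F-test adjusted p = 0.00924), and the values of T, Z and G overlapped. The 5 others were PB.56895.11, PB.39262.11, PB.3799.60, PB.41982.4 and PB.61319.2, with ranges of cultivar means of 0.39 to 0.82 on the log2 scale. These 7 were named after their values were seen.

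Groups that did not overlap were also counted without a test. All 3 B2 libraries were below the 9 others in 10 members, against 5.72% of all unigenes tested and 9.67% of the 900 next in rank, and above them in 4, against 11.5% and 5.67%. T was above in 7, against 2.35% and 3.44%, and below in 1, against 1.63% and 1.11%. Z was above in 3, against 1.82% and 3.78%, and below in 1, against 2.68% and 1.56%. G was above in 0, against 0.962% and 0.778%, and below in 1, against 1.01% and 0.778%. For T, the 7 members were PB.734.2622, PB.56895.11, PB.54399.60, PB.4340.89, PB.56900.2, PB.1168.90 and PB.59688.1.

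Variation within cultivars was then described. On the log2 scale a member had a median standard deviation of 0.410 among the B2 libraries, 0.209 for Z, 0.124 for G and 0.112 for T. In the 900 unigenes next in rank it was 0.293, 0.149, 0.0883 and 0.111, and over all unigenes tested 0.219, 0.136, 0.123 and 0.135, in the same order of cultivars. B2 had the largest standard deviation of the 4 cultivars in 79 members, Z in 15, G in 4 and T in 2. Without B2 replicate 2 the median in B2 was 0.270, without B2 replicate 3 it was 0.303 and without B2 replicate 1 it was 0.550. Without Z replicate 2 that in Z was 0.0842, and without G replicate 2 that in G was 0.0466.

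**Figure D5:**
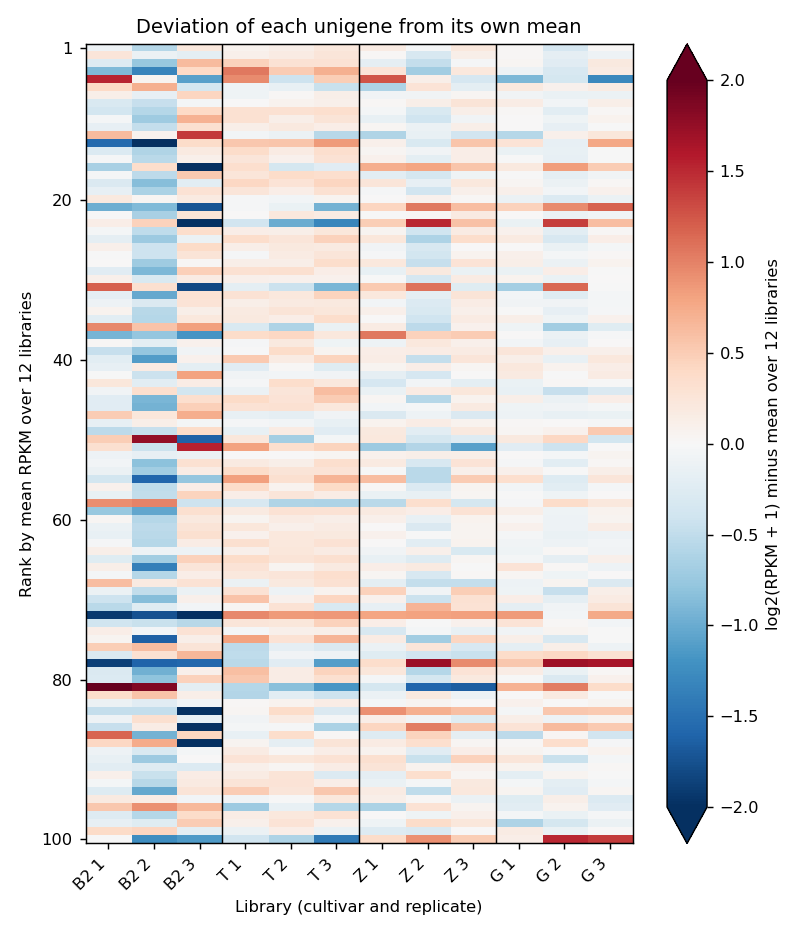
Deviation of log2(RPKM + 1) from the mean of the unigene over 12 libraries, for the 100 members in rank order from top to bottom and the libraries grouped by cultivar. Red is above and blue below the mean, and the colour scale ends at 2 in either direction. B2 replicate 2 is pale to dark blue in most members, and Z replicate 2 and G replicate 2 are blue in many of them.

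Replicate 2 of B2, Z and G was the low library of its cultivar for most members. B2 replicate 2 was lowest of B2 in 70% of members and in 31.1% of all unigenes tested. Z replicate 2 was lowest of Z in 54% of members and in 40.04% of all, and G replicate 2 was lowest of G in 67% and 34.9%. In T no library stood out, with 24% to 42% of members lowest in each. All of B2 replicate 2, Z replicate 2 and G replicate 2 were the low library in 47 members, against 7.22% of all unigenes, and in 44 of these 47 B2 replicate 3 was the high library of B2. The labels give no link between libraries of the same number in different cultivars.

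The opposite pattern was also counted, as a description. Z replicate 2 and G replicate 2 were both the highest of their cultivar in 17 members, not far from the 13.3% of all unigenes. B2 replicate 3 was the lowest of B2 in 24 members, against 39.8% of all unigenes tested. Both held in 8 of the 17 members. No share of all unigenes is given for this combination, so it is not read as a trait of the members. These 8 included 5 of the 8 members with the largest spread within cultivars, namely PB.33330.2, PB.8275.12, PB.56263.1, PB.56015.2 and PB.58823.1.

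The 8 members with the largest pooled spread within cultivars were PB.33330.2, PB.8275.12, PB.48036.15, PB.56263.1, PB.28066.14, PB.56015.2, PB.24983.8 and PB.58823.1, with 0.720 to 0.977 on the log2 scale. PB.33330.2 had 4686, 2561 and 587 RPKM in B2 replicates 1 to 3, 1786, 1532 and 1094 in T, 2946, 4377 and 1733 in Z and 1278, 4577 and 2040.1 in G. Every cultivar overlapped with every other (limma F-test adjusted p = 0.682). PB.8275.12 had 2519, 3143 and 448 RPKM in B2 replicates 1 to 3, 1750, 1153 and 924 in T, 3234, 6508 and 3433 in Z and 2095, 5956 and 3502 in G. The T libraries were low, Z replicate 2 and G replicate 2 were high, and B2 replicate 3 was lowest of all. The cultivar means of PB.8275.12 had a range of 1.76 that did not pass (limma F-test adjusted p = 0.148), but passed 0.05 without B2 replicate 3.

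In PB.48036.15, PB.56263.1 and PB.56015.2 the B2 replicate 3 library was the lowest of all 12. PB.48036.15 had 2269, 5473 and 526 RPKM in B2 replicates 1 to 3, 1873, 1004 and 1574 in T, 1864, 1259.8 and 1349 in Z and 1840.4, 2136 and 1249 in G. B2 replicate 2 held the highest value, with all of T, Z and G between it and B2 replicate 3 (limma F-test adjusted p = 0.946). PB.56263.1 had 1738, 3454 and 322 RPKM in B2 replicates 1 to 3, 3419.7, 2132 and 2309.9 in T, 4505, 4708 and 3989 in Z and 3109, 4824 and 3863 in G. The range of cultivar means of 1.82 did not pass the F-test (limma adjusted p = 0.17) but did without B2 replicate 2. PB.56015.2 had 1651, 2083 and 271 RPKM in B2 replicates 1 to 3, 1288, 1094 and 1478 in T, 1380.5, 1564 and 1272 in Z and 1260.2, 1578 and 1222 in G. Outside B2 the libraries of PB.56015.2 ran only from 1094 to 1578 RPKM, and its limma F-test adjusted p was 0.862. Among the 20 members whose cultivar means ranged over at least 1 on the log2 scale, 5 were called in no pair, and these were PB.28066.14, PB.56263.1, PB.8275.12, PB.57063.1 and PB.1092.121.

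At the steady end, 42 members had a highest library below 2 times their lowest, whereas in 18 members it was 5 times or more. PB.56725.4 was the steadiest. PB.56725.4 had 1723, 1647 and 1708 RPKM in B2 replicates 1 to 3, 1867, 1866 and 1891 in T, 1953, 1999.8 and 2012 in Z and 1853, 1798 and 1919.6 in G. The B2 libraries were all below and the Z libraries all above the others. Its standard deviation over 12 libraries was 0.0911 on the log2 scale and its range of cultivar means 0.23, with a limma F-test adjusted p of 0.3. Its pooled standard deviation within cultivars was 0.0318. The limma test draws that spread toward the spread of other unigenes, so this p does not rest on its own replicates alone.

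The next 4 in steadiness were PB.3011.249, PB.5350.33, PB.5626.64 and PB.48883.30. PB.3011.249 ran from 1721 to 2148 RPKM over the 12 libraries and PB.5350.33 from 1201 to 1557. PB.5626.64 ran from 2027 to 2675 RPKM and PB.48883.30 from 2468 to 3417. The lowest and highest libraries of PB.3011.249 were B2 replicate 1 and Z replicate 2, and those of PB.48883.30 were G replicate 2 and B2 replicate 1. B2 lay below the 9 others in PB.5350.33 and G below them in PB.48883.30, while in PB.3011.249 and PB.5626.64 no cultivar stood apart from the 9 other libraries. The limma F-test adjusted p-values of the 4 were 0.622, 0.325, 0.823 and 0.221. With 3 libraries per cultivar, an adjusted p above 0.05 does not show that their levels were equal.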

How the data were processed

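Leaf RNA of 4 cultivars was sequenced by the authors in 12 paired-end libraries on an Illumina instrument. The deposited RPKM values were made by the authors, who mapped filtered reads with HISAT2 (2.05) onto unigenes from long reads of cultivar B1 and quantified them with RSEM. The study also uses a fragment-based name for these values. RSEM divides reads among similar unigenes, so near-identical unigenes are uncertain. The table gives no read numbers. Ratios of values peaked at 1 in all 66 pairs of libraries, with at most 5.57% of unigenes at the peak, so reads per unigene could not be recovered and no counting interval is given. Bases sequenced per library are listed by the study and were not used here. Summed RPKM ran from 993016 to 1061092.

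Values were tested as log2(RPKM + 1), a scale that understates changes of low unigenes, with limma 3.58.1 (R 4.3.3, eBayes with trend, cultivar as the only factor, two-sided, Benjamini-Hochberg over 33161 unigenes). A member was called where the adjusted p was below 0.05 and the log2 difference reached 1 in either direction. The share of summed RPKM was tested by an exact permutation test. Python 3.11.15, numpy 2.4.6, pandas 2.3.3 and matplotlib 3.10.9 were used for the rest. The fit was tested on simulated data. The limma p-values rest on the spread between the 3 samples of a cultivar, pooled over the 4 cultivars. limma draws this spread toward that of other unigenes of like level, so a steady member is not judged by its own spread alone. The permutation test used the spread of the shares between libraries.

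The members and lists were chosen with earlier results of these data known. Unigenes were named by a rule: the 10 highest, the 12 with the largest range of cultivar means, the 8 with the largest spread within cultivars, the 5 steadiest, those set apart in a cultivar, and the 3 on either side of the bound. Others are marked as chosen after their values were seen. A planned description of shares within loci, and of unigenes named from it, was not made because each locus had 1 unigene. The alternatives were a pseudocount of 0.1, no filter or one at 3.75 RPKM, median-ratio scaling, the adjusted p alone, fits on 2 cultivars, the replicate number as a block, other choices of members and leaving out each library.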

Additional observations from a re-analysis of the deposited data

How the results depend on the processing

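Over 20 results on counts, shares and spread, 253 values were computed under alternatives, and 205 of them stayed on their side of the threshold or within 1.5 times. Of 555 values for 32 named results on single members, 509 kept their side of the threshold, 39 lost it, 7 gained it and 0 reversed. All 39 losses fell on the pairwise results, of which 159 values were kept. The F-test results kept their side in 350 values and gained it in 7. With no filter, when 57430 unigenes were tested, the members called were 6 for Z and B2 (4.59% of all unigenes), 0 for G and T (0.486%) and 10 in the F-test (13.9%). Without the threshold on size, which can only add calls, members called against B2 numbered 15 for T, 19 for Z and 11 for G, and 7 were set apart in B2. Fits on 2 cultivars alone called 6 members for T and B2, 4 for Z and B2 and 3 for Z and T. For G they called 4 against B2, 4 against T and 1 against Z. The share of all unigenes called in these fits is not given, so their counts are not read as results about the members.

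With each library left out in turn, members called against B2 ran from 5 to 15 for T, 6 to 11 for Z and 3 to 12 for G. Against T they ran from 0 to 3 for Z and 0 to 4 for G, and between G and Z from 0 to 1. The F-test gave 10 to 41, and 1 to 4 were set apart in B2. The share of the sum of squares between cultivars ran from 0.373 to 0.678. The median spread ran from 0.270 to 0.550 in B2, 0.0842 to 0.232 in Z and 0.0466 to 0.144 in G. With 20 loci of the largest identifier numbers also left out, chosen after seeing the data, 87 members stayed, no count of members called moved by over 1.5 times, and the members held 18.04% to 22.25% of summed RPKM (exact permutation p = 0.089).

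The labels do not say that a replicate number links libraries of different cultivars. Of 18 same-numbered pairs 6 had a correlation of deviations over 0.1, from -0.0995 to 0.188, and 22 of 36 library and cultivar combinations had their highest correlation at their own number. With the replicate block the share among cultivars was 0.643 (exact permutation p = 0.00174, the smallest that 576 arrangements can give), 1 member was called for Z and T and 4 were set apart in B2. Without reads per unigene, the counting error of single values could not be given.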
